A study of Homo sapiens with 18 samples.

Results

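The 10 genes CAD, UMPS, DHODH, CTPS1, PPAT, GART, PFAS, PAICS, ATIC and IMPDH2 encode enzymes that build pyrimidine and purine nucleotides from small precursors. They were chosen by name, for their place in the 2 pathways, from the 60483 gene identifiers that every library lists, and all 10 were among the 16122 genes that passed the filter on low counts. The choice was made with earlier results of these data known. The libraries measured messenger RNA of HAIR-M, an established human line of B cells given in the labels as MZL (marginal zone lymphoma). The cells received the solvent DMSO or 5 nM copanlisib, an inhibitor of the phosphoinositide 3-kinases (PI3K), for 4, 8 or 12 h, with 3 libraries in each of the 6 groups and no other agent or genetic change in the labels. HAIR-M is 1 cell line, and the labels name no separate cultures behind the 3 libraries of a group. The p-values therefore rest on the spread among libraries, which may be technical.

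De novo synthesis makes nucleotides from amino acids, bicarbonate, one-carbon units carried by folate, and the activated sugar PRPP. In the pyrimidine branch the ring is closed first and then joined to PRPP, giving UMP and, after phosphorylation, UTP and CTP. The purine ring is instead built step by step on PRPP as far as IMP, from which separate branches lead to AMP and GMP. Proliferating lymphocytes draw heavily on these routes for RNA and DNA, and inhibitors of DHODH and IMPDH are used against lymphocyte proliferation.

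Defining B cell markers (6 genes) summed to between 1308 and 2025 CPM in the 18 libraries (CPM, a gene's read count scaled to the same library total in every library). Their sum was higher in copanlisib at each time, at 1399 to 1507 against 1308 to 1350 CPM at 4 h, 1698 to 1728 against 1448 to 1481 CPM at 8 h and 1976 to 2025 against 1625 to 1648 CPM at 12 h. Its part in the results below was not tested. T and NK cell markers summed to between 7.52 and 16.9 CPM, nearly all of it NKG7, with CD3D at 0 reads in every library. Myeloid markers summed to between 4.69 and 11.3 CPM, with LYZ at or under 0.158 CPM. Most of that sum was CSF1R, between 2.13 and 4.21 CPM, and ITGAM, between 1.78 and 5.41 CPM. The labels' extraction text mentions retinas: the retinal genes PDE6B and NRL lay between 5.59 and 10.3 CPM and between 2.49 and 3.45 CPM. Reads assigned to genes ran from 13587017 to 25566761 per library. Among the members, DHODH had the fewest reads, between 234 and 406 per library, and IMPDH2 the most, between 5714 and 10848. Copanlisib 4 h replicates 1 and 2 stood apart from the other libraries: 8.73% and 5.22% of their reads were unmapped against at most 2.82% elsewhere, and 12.4% and 12.6% of their gene reads were mitochondrial against at most 10.5% elsewhere. The part of this difference in the 4 h results was not tested. The 4 h values of the 10 members, and of some other genes, are therefore also given for replicate 3 alone. That is the fit in which copanlisib replicates 1 and 2 at 4 h are left out. That arm is then 1 library, which is assumed to vary like the libraries of the other groups, so its p-values have no replicate check of their own.

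CAD lies at chr2:27217390-27243943 on the plus strand, UMPS at chr3:124730366-124749273 on the plus strand, DHODH at chr16:72008588-72027664 on the plus strand and CTPS1 at chr1:40979335-41012565 on the plus strand (GRCh38, GENCODE 29). The first purine enzyme, PPAT, lies at chr4:56393362-56435615 on the minus strand, and PAICS, which acts later in the same branch, starts next to it at chr4:56435741-56464579 on the plus strand. GART lies at chr21:33503931-33543491 on the minus strand, PFAS at chr17:8247618-8270491 on the plus strand, ATIC at chr2:215311817-215349773 on the plus strand and IMPDH2 at chr3:49024325-49029408 on the minus strand. The positions span whole genes, exons and introns included, and the counts are of reads in their exons. Parts of GART overlap SON, and parts of PFAS overlap CTC1, on the opposite strand. The counts used were those on a single strand.

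PPAT and PAICS are transcribed away from each other, and only 125 bases lie between their annotated starts (chr4:56435616-56435740). That interval is shown, read on the plus strand, because a single stretch of DNA lies upstream of both genes, whose values are compared below. It is given from RefSeq's GRCh38.p14 and holds 76% G or C and 15 CpG pairs.
PPAT-PAICS interval: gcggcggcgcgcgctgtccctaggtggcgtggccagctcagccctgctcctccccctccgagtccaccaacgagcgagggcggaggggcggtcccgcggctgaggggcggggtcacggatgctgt

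Windows from 250 bases before to 50 bases after the RefSeq starts (GRCh38.p14) were found for 9 of the 10 genes, IMPDH2 being the exception. They were searched on both strands for the E-box CACGTG, a sequence bound by MYC with its partner MAX, since MYC targets are known to include nucleotide synthesis genes. The E-box was found in windows of 4 of these 9 genes, against 8.77% of the 27305 genes with a window. The sites are shown with 10 bases on each side and the E-box in capitals. PPAT and PAICS share 1 of them, because their windows overlap.
DHODH, chr16:72008575-72008600, plus strand: cgctactgcgCACGTGcacccaacca
PPAT and PAICS, chr4:56435782-56435807, minus strand: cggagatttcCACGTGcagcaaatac
ATIC, first site, chr2:215312003-215312028, plus strand: gccggcgggcCACGTGataagcccgg
ATIC, second site, chr2:215312078-215312103, plus strand: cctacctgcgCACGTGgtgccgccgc
CCGGAAG was in the window of 1 member and of 12.2% of genes, and TGACG in those of 5 members and of 28.4% of genes. No binding was measured, and a match describes only the letters in the window.

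Per length, in CPM per kilobase of exon in DMSO at 4 h, IMPDH2 stood highest at 159 ± 4.6 (SD, n = 3). ATIC followed at 75.8 ± 1.3 and PAICS at 39.7 ± 0.66. CAD (20.9 ± 1.4), GART (16.8 ± 0.14) and PFAS (10.3 ± 0.13) came next. The level of PPAT was 8.34 ± 0.77, that of CTPS1 8.02 ± 0.17 and that of UMPS 7.77 ± 0.27, and these 3 neighbours did not differ beyond their spread. DHODH, a mitochondrial enzyme, was lowest at 2.84 ± 0.15. The length is the union of all annotated exons of a gene, which understates the level of genes with long rare exons.

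Copanlisib lowered most of the 10 transcripts by 4 h and all of them by 12 h, with log2 fold changes between −0.13 for IMPDH2 and −0.78 for PAICS at 12 h. At 4 h, 8 of the 10 were lower in copanlisib by edgeR's quasi-likelihood test (Benjamini-Hochberg adjusted p under 0.05 over all genes tested), against 20.7% of all genes. At 8 h, 9 were lower against 18.3% of all genes, and at 12 h all 10 were lower against 16.5%. None was higher at any time. The shares of all genes are a background and not an independent test, since the members were chosen with earlier results of these data known. The median log2 fold change of the 10 was −0.39, −0.44 and −0.36 at 4, 8 and 12 h, while the median of all tested genes lay between 0.0044 and 0.0151. The 3 copanlisib libraries lay below the 3 DMSO libraries for 7 members at 4 h (19.9% of all genes), for all 10 at 8 h (26.2%) and for all 10 at 12 h (24.1%). For replicate 3 alone at 4 h, the median log2 fold change of the 10 was −0.36. The values in that fit were −0.39 for UMPS, −0.57 for CTPS1, −0.62 for PPAT, −0.23 for GART, −0.36 for PAICS and −0.0093 for IMPDH2, and those of the other members stand with their results. In RNA from a whole culture, fewer cells holding a transcript and less of it per cell cannot be told apart.

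**Figure D1:**
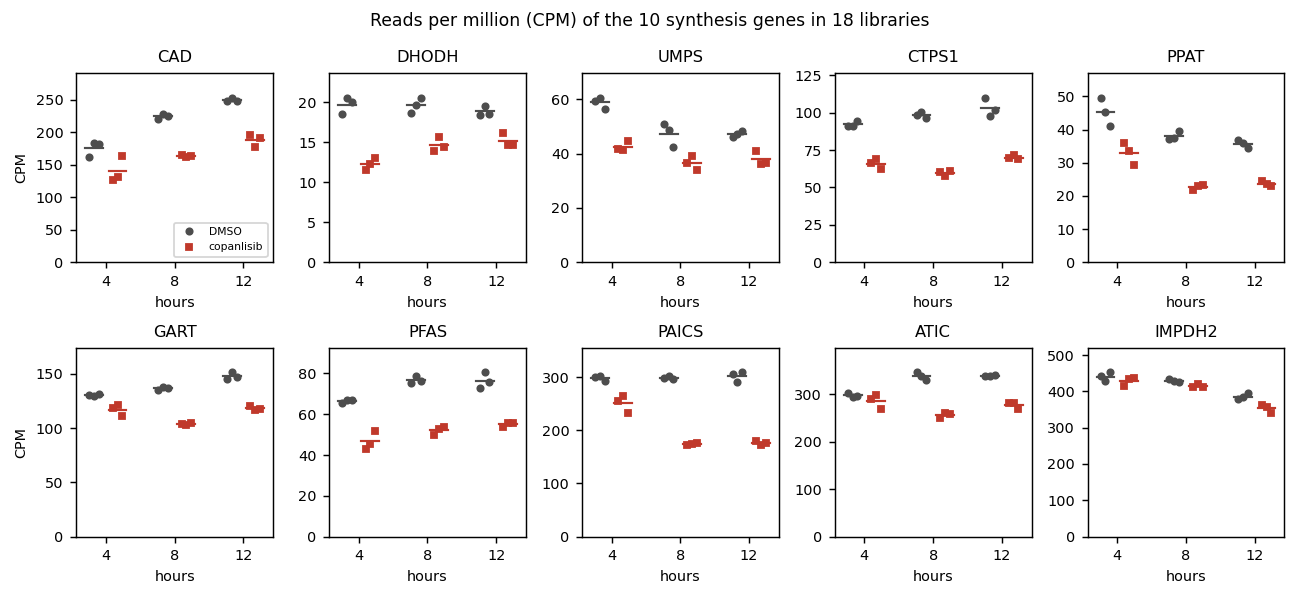
Level of each of the 10 genes, in CPM, in each of the 18 libraries at 4, 8 and 12 h, with points for single libraries and bars for group means. PAICS stays near 300.3 CPM in DMSO and near 175 CPM in copanlisib at 8 and 12 h, while the IMPDH2 groups lie close together at each time.

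Pyrimidine synthesis starts with CAD, a single protein that carries the first 3 activities of the route. Its level in DMSO was 162, 184 and 183 CPM at 4 h, 221, 229 and 225 CPM at 8 h and 248, 253 and 249 CPM at 12 h. In copanlisib it was 127, 132 and 163 CPM at 4 h, 165, 163 and 164 CPM at 8 h and 197, 178 and 192 CPM at 12 h. CAD was higher at 12 h than at 4 h under both treatments, and lower in copanlisib with no overlap at 8 and 12 h. At 4 h the highest copanlisib library, replicate 3, reached the lowest DMSO library. The log2 fold change was −0.33 ± 0.06 (SE; adjusted p = 0.00021, edgeR) at 4 h, −0.46 ± 0.06 (adjusted p = 2.9e-06) at 8 h and −0.40 ± 0.06 (adjusted p = 1.8e-05) at 12 h. For replicate 3 alone the 4 h value was −0.12 (adjusted p = 0.15, with the spread taken from the other groups). Among 5 equal groups of genes by G and C content, CAD is in the highest, whose median 4 h log2 fold change was −0.21 with all 3 copanlisib libraries and 0.0029 for replicate 3 alone.

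DHODH oxidises dihydroorotate to orotate at the inner mitochondrial membrane. In DMSO it measured between 18.4 and 20.5 CPM in all 9 libraries. In copanlisib it was 11.5, 12.2 and 12.97 CPM at 4 h, 13.9, 15.6 and 14.4 CPM at 8 h and 16.2, 14.7 and 14.7 CPM at 12 h. The DMSO level was flat and every copanlisib library lay below it. The difference was widest at 4 h: the log2 fold change was −0.69 ± 0.08 (adjusted p = 9.6e-08, edgeR) there, −0.41 ± 0.07 (adjusted p = 9.3e-05) at 8 h and −0.31 ± 0.08 (adjusted p = 0.0028) at 12 h. For replicate 3 alone, the 4 h value was −0.60 (adjusted p = 2.5e-05).

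UMPS, a bifunctional enzyme, joins orotate to PRPP and removes a carboxyl group to give UMP. It measured 59.6, 60.6 and 56.6 CPM in DMSO and 41.6, 41.5 and 44.7 CPM in copanlisib at 4 h. The corresponding values were 51.0, 48.8 and 42.4 CPM against 36.5, 39.0 and 34.1 CPM at 8 h, and 46.2, 47.4 and 48.4 CPM against 41.1, 36.1 and 36.5 CPM at 12 h. The groups did not overlap at any time, and the DMSO level was highest at 4 h. UMPS fell by 0.47 ± 0.07 on the log2 scale (adjusted p = 4.2e-06, edgeR) at 4 h, by 0.38 ± 0.07 (adjusted p = 8.3e-05) at 8 h and by 0.32 ± 0.07 (adjusted p = 0.00083) at 12 h.

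CTPS1 makes CTP from UTP and is the form of CTP synthase that activated lymphocytes depend on. Its level was 91.4, 91.1 and 94.7 CPM in DMSO at 4 h and 66.6, 68.9 and 62.0 CPM in copanlisib. At 8 h it was 98.5, 101 and 96.3 CPM against 60.5, 57.5 and 61.3 CPM, and at 12 h 109.9, 97.9 and 102 CPM against 69.4, 71.4 and 68.9 CPM. No copanlisib library exceeded 71.4 CPM and no DMSO library was under 91.1 CPM. The log2 fold change was −0.49 ± 0.05 (adjusted p = 3.8e-08, edgeR) at 4 h, −0.72 ± 0.05 (adjusted p = 4.2e-11) at 8 h, a drop by 39.3%, and −0.56 ± 0.05 (adjusted p = 4.2e-09) at 12 h.

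The purine branch opens with PPAT, the amidotransferase whose reaction commits PRPP to the pathway. PPAT measured 49.6, 45.3 and 41.2 CPM in DMSO and 36.0, 33.7 and 29.4 CPM in copanlisib at 4 h. It was 37.1, 37.5 and 39.6 CPM against 21.7, 23.0 and 23.3 CPM at 8 h, and 37.0, 35.8 and 34.4 CPM against 24.6, 23.5 and 23.1 CPM at 12 h. The level was lower at 8 and 12 h than at 4 h under both treatments, and the copanlisib libraries lay below the DMSO libraries at each time. The log2 fold change was −0.45 ± 0.07 (adjusted p = 1.5e-05, edgeR) at 4 h, −0.75 ± 0.07 (adjusted p = 1.2e-08) at 8 h and −0.59 ± 0.08 (adjusted p = 9.5e-07) at 12 h.

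PAICS, the neighbour of PPAT, carries out a carboxylation and a ligation in the middle of the branch. In DMSO it measured 300.3, 303 and 293 CPM at 4 h, 298, 302 and 297 CPM at 8 h and 307, 292 and 310 CPM at 12 h. In copanlisib it was 255, 266 and 232 CPM at 4 h, 172, 175 and 176 CPM at 8 h and 180.4, 172 and 175 CPM at 12 h. The DMSO level was nearly constant, and in copanlisib a small decrease at 4 h became a large one at both later times. PAICS fell by 0.25 ± 0.04 on the log2 scale (adjusted p = 6.1e-05, edgeR) at 4 h, by 0.78 ± 0.04 (adjusted p = 1.1e-12) at 8 h and by 0.78 ± 0.05 (adjusted p = 9.8e-13) at 12 h. These later values, drops by 41.7% and 41.9%, were the most negative of the 10 genes at 8 and 12 h. The annotation also lists 7 named pseudogenes of PAICS, none with over 5 reads in a library.

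GART is a trifunctional protein that acts at 3 steps between PPAT and PAICS. Its level was 131, 129 and 131 CPM in DMSO and 118, 121 and 111 CPM in copanlisib at 4 h. At 8 h it was 135, 138 and 137 CPM against 104, 103 and 104 CPM, and at 12 h 146, 152 and 147 CPM against 120.4, 117 and 117 CPM. The groups were close but separate at 4 h and further apart later. The log2 fold change was −0.16 ± 0.04 (adjusted p = 0.004, edgeR) at 4 h, −0.40 ± 0.04 (adjusted p = 4.1e-08) at 8 h and −0.32 ± 0.04 (adjusted p = 1.2e-06) at 12 h.

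PFAS adds a nitrogen from glutamine between the steps of GART. It measured 65.6, 67.2 and 66.8 CPM in DMSO and 42.8, 45.2 and 52.0 CPM in copanlisib at 4 h. The values at 8 h were 75.5, 78.7 and 76.3 CPM against 49.7, 52.9 and 53.9 CPM, and those at 12 h 73.0, 80.6 and 75.7 CPM against 53.9, 55.6 and 55.7 CPM. Every copanlisib library was below every DMSO library of its time. PFAS fell by 0.51 ± 0.06 on the log2 scale (adjusted p = 2e-07, edgeR) at 4 h, by 0.56 ± 0.06 (adjusted p = 3.9e-08) at 8 h and by 0.47 ± 0.06 (adjusted p = 7.5e-07) at 12 h. Like CAD it is among the genes with the most G and C, and its 4 h value for replicate 3 alone was −0.35 (adjusted p = 5.9e-05).

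ATIC closes the ring and gives IMP. At 4 h it was 303, 294 and 296 CPM in DMSO and 289, 299.7 and 268 CPM in copanlisib, and the groups overlapped. At 8 h it was 347, 338 and 330.0 CPM against 250.2, 262 and 258 CPM, and at 12 h 339, 338 and 341 CPM against 281, 281 and 269 CPM, with clear gaps between the groups. The log2 fold change was −0.06 ± 0.04 (adjusted p = 0.29, edgeR) at 4 h, −0.40 ± 0.04 (adjusted p = 3.5e-08) at 8 h and −0.29 ± 0.04 (adjusted p = 5.2e-06) at 12 h. For replicate 3 alone at 4 h, ATIC was at −0.15 (adjusted p = 0.023, edgeR, with the spread taken from the other groups).

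IMPDH2, the main IMP dehydrogenase of dividing cells, takes IMP towards GMP. Its DMSO level was 442, 427 and 453 CPM at 4 h, 434, 428 and 427 CPM at 8 h and 379.5, 384 and 394 CPM at 12 h. In copanlisib it was 416, 435 and 437 CPM at 4 h, 411, 420.5 and 411 CPM at 8 h and 362, 358 and 339.7 CPM at 12 h. It was the most abundant and the least altered of the 10 genes, with overlap at 4 h and narrow gaps later. The log2 fold change was −0.04 ± 0.04 (adjusted p = 0.47, edgeR) at 4 h, −0.05 ± 0.04 (adjusted p = 0.3) at 8 h and −0.13 ± 0.04 (adjusted p = 0.015) at 12 h. The 12 h call was lost without DMSO 12 h replicate 3 (adjusted p = 0.064) and without copanlisib 12 h replicate 3 (adjusted p = 0.098).

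**Figure D2:**
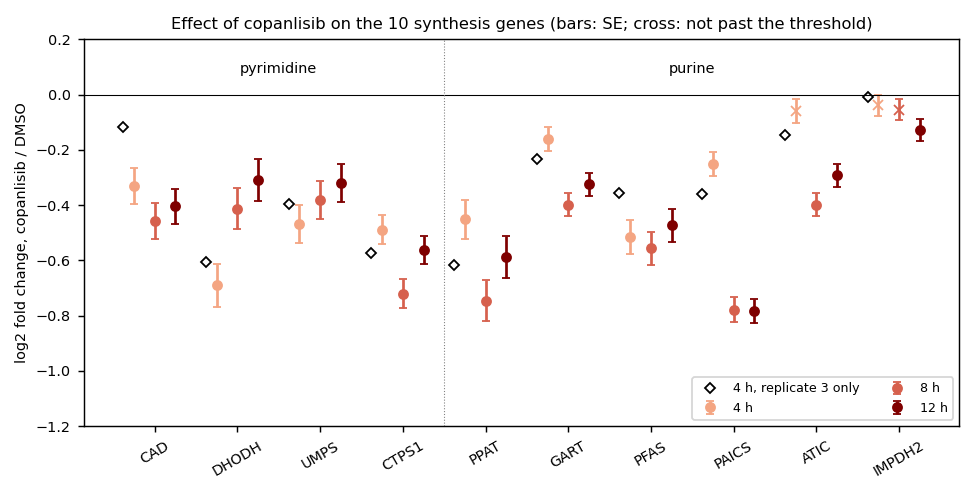
Log2 fold change of copanlisib against DMSO for each of the 10 genes at 4, 8 and 12 h, with bars for 1 standard error of the edgeR fit over 18 libraries. PAICS moves from −0.25 at 4 h to −0.78 at 8 and 12 h, DHODH moves from −0.69 at 4 h to −0.31 at 12 h, and IMPDH2 lies between −0.13 and −0.04.

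The difference of the drug effect between times was tested as an interaction. Between 4 and 8 h the effect became more negative for 5 of the 10 genes by edgeR's test, against 9.86% of all genes, and less negative for none, against 9.29%. The change was −0.53 ± 0.06 (adjusted p = 1.4e-05) for PAICS, −0.34 ± 0.06 (adjusted p = 0.00071) for ATIC, −0.29 (adjusted p = 0.044) for PPAT, −0.24 (adjusted p = 0.0087) for GART and −0.23 (adjusted p = 0.028) for CTPS1. The PPAT call was lost on leaving out any of 10 of the 12 libraries concerned (adjusted p between 0.05 and 0.15), the exceptions being DMSO 4 h replicate 1 and copanlisib 4 h replicate 3. CTPS1 was lost without DMSO 4 h replicate 1 or 2, copanlisib 4 h replicate 1 or 2, DMSO 8 h replicate 2 or copanlisib 8 h replicate 2 (adjusted p between 0.052 and 0.078). Over all genes, the median effect of the group lowest in G and C, which holds PPAT, went from 0.12 at 4 h to −0.08 at 8 h, and that of the next group, which holds PAICS and CTPS1, from 0.11 to −0.03. That of the middle group, which holds UMPS, GART and ATIC, went from 0.05 to 0.03. The part of G and C content in the differences was not tested. For replicate 3 alone at 4 h, with the spread taken from the other groups, adjusted p was under the threshold for 3 genes: PAICS at −0.42 (adjusted p = 6.2e-06), ATIC at −0.26 (adjusted p = 0.008) and CAD at −0.35 (adjusted p = 0.0019). PPAT (−0.13, adjusted p = 0.62), GART (−0.17, adjusted p = 0.17) and CTPS1 (−0.15, adjusted p = 0.35) were above it. The count was also 3 without DMSO 4 h replicate 2, without copanlisib 4 h replicate 1 or replicate 2, without DMSO 8 h replicate 2 and without copanlisib 8 h replicate 2.

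No gene of the 10 changed its effect between 8 and 12 h by edgeR, DESeq2 or limma-voom, and 1 had an unadjusted p under 0.05 in edgeR, while 0.0186% of all genes were called lower and 0.0372% higher. Between 4 and 12 h the effect became more negative for PAICS (−0.53, adjusted p = 6.2e-06) and ATIC (−0.23, adjusted p = 0.0089), against 7.69% of all genes. It became less negative for DHODH (0.38 ± 0.11, adjusted p = 0.018), against 8.98% of all genes. The DHODH call was lost without DMSO 4 h replicate 2, without copanlisib 4 h replicate 1 or replicate 2, and without copanlisib 12 h replicate 1. Using replicate 3 alone at 4 h, DHODH was at 0.30 (adjusted p = 0.22), ATIC at −0.15 (adjusted p = 0.15) and PAICS at −0.42 (adjusted p = 2.4e-06).

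In DMSO alone the 10 genes took different courses. From 4 to 8 h, 2 were lower (16% of all genes) and 3 higher (13.9% of all genes): UMPS fell by 0.31 and PPAT by 0.25 on the log2 scale, and CAD rose by 0.35, PFAS by 0.21 and ATIC by 0.18. Without DMSO 4 h replicate 1, PPAT was not called (adjusted p = 0.069). From 4 to 12 h, 3 were lower (25.4% of all genes) and 5 higher (23.2% of all genes). One of the higher genes, CTPS1, was not called without DMSO 12 h replicate 1 (adjusted p = 0.1, edgeR). The gene with the largest rise over those 8 h was CAD at 0.50, and the largest drops were those of PPAT at −0.34 and UMPS at −0.32. PAICS had log2 changes of 0.00 and 0.02 over the same intervals in DMSO, and of −0.52 and −0.51 in copanlisib. In copanlisib, 6 members were lower (21.3% of all genes) and 3 higher (19.5%) at 8 h than at 4 h, and 4 lower (26.3%) and 3 higher (25.6%) at 12 h than at 4 h. The 12 h call of UMPS (adjusted p = 0.047, edgeR) was lost in several settings. Among them were DESeq2 (adjusted p = 0.092) and, in edgeR, no filter (adjusted p = 0.14) and leaving out copanlisib 12 h replicate 2 (adjusted p = 0.17). Using replicate 3 alone at 4 h, the copanlisib counts from 4 to 8 h were 3 lower and 0 higher, and CAD went from 0.22 to −0.00031. The count of members higher was 0 without copanlisib 4 h replicate 1, and 1 without copanlisib 4 h replicate 2 or without copanlisib 8 h replicate 2. The comparisons with 4 h share their 4 h libraries.

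CTP synthase and IMP dehydrogenase each have a second gene. CTPS2 measured 23.1, 24.6 and 27.2 CPM in DMSO and 32.3, 30.5 and 28.0 CPM in copanlisib at 4 h, above the DMSO libraries at that time and likewise, with no overlap, at 8 and 12 h. Its log2 fold change was 0.28 (adjusted p = 0.0023, edgeR) at 4 h, 0.15 (adjusted p = 0.086) at 8 h and 0.14 (adjusted p = 0.12) at 12 h, and 0.16 (adjusted p = 0.19) at 4 h for replicate 3 alone. With only the 6 libraries of a time in the fit, CTPS2 was called at 8 h (adjusted p = 0.026) and at 12 h (adjusted p = 0.042). IMPDH1 measured 38.8, 38.3 and 43.0 CPM in DMSO and 23.8, 23.4 and 32.2 CPM in copanlisib at 4 h. It fell at each time, by 0.60, 0.44 and 0.36 on the log2 scale, while IMPDH2 had the values of −0.04, −0.05 and −0.13 given above. The 4 h value of IMPDH1 includes the 2 copanlisib libraries that stand apart, and replicate 3, at 32.2 CPM, was nearer to DMSO. Its effect at 4 h was not called different from that at 8 h (adjusted p = 0.36, edgeR) or 12 h (adjusted p = 0.16).

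Within each library the balance between the paired genes was taken as a log2 ratio of their read counts, for 3 ratios chosen after their values were seen. The ratio of CTPS1 to CTPS2 averaged 1.89, 1.59 and 1.52 in DMSO at 4, 8 and 12 h and 1.12, 0.73 and 0.82 in copanlisib. The mean difference over the 3 times was −0.78, and 9 of 9 copanlisib libraries lay below the DMSO mean of their time (two-sided exact permutation test within times, p = 0.00025, adjusted p = 0.000375 over the 3 ratios). For IMPDH1 to IMPDH2 the mean difference was −0.40, also with 9 of 9 libraries below (exact permutation p = 0.00025, adjusted p = 0.000375). That p is the smallest the 8000 relabellings can give. Because the ratios were picked from values already seen, neither it nor the adjustment over 3 ratios accounts for that choice. Using replicate 3 alone at 4 h, the mean differences were −0.77 and −0.31. The ratio of PPAT to PAICS, the 2 genes on either side of the interval shown above, differed by −0.20 at 4 h, 0.03 at 8 h and 0.19 at 12 h. Its mean difference was 0.0059 (exact permutation p = 0.903), with 4 copanlisib libraries below and 5 above the DMSO mean of their time. Opposite differences at 4 and 12 h cancel in that mean, so this p cannot show an unchanged ratio at single times. At 12 h the copanlisib libraries (−2.923 to −2.87) all lay above the DMSO libraries (−3.17 to −3.025).

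**Figure D3:**
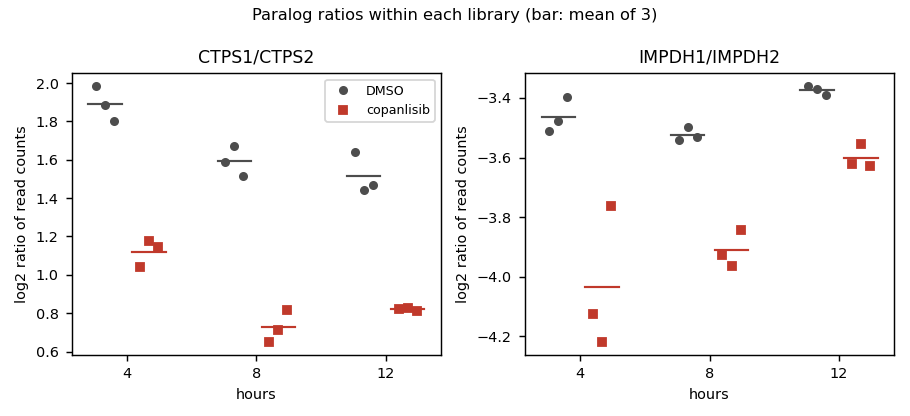
Log2 ratio of read counts within each of the 18 libraries for CTPS1 to CTPS2 and IMPDH1 to IMPDH2 at 4, 8 and 12 h, with points for libraries and bars for group means. The 9 copanlisib libraries lie below the DMSO means of their time for both ratios, and IMPDH1 to IMPDH2 at 4 h is spread from −4.22 to −3.76 in copanlisib.

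Of the other enzymes of the 2 routes, ADSL, which acts both before IMP and on the way to AMP, fell by 0.26, 0.35 and 0.43 at 4, 8 and 12 h. GMPS, which makes GMP, had log2 fold changes of −0.12 (adjusted p = 0.11, edgeR), −0.37 and −0.27, and ADSS2, on the AMP branch, −0.12 (adjusted p = 0.12), −0.43 and −0.29. Both passed the test at 8 and 12 h. For replicate 3 alone their 4 h values were −0.31 for GMPS and −0.32 for ADSS2, and the 4 h call was also made without copanlisib 4 h replicate 1 for GMPS (adjusted p = 0.014) and without replicate 2 for ADSS2 (adjusted p = 0.022). ADSS1, the muscle form, was at 0.18, 0.30 and 0.29 and did not pass (adjusted p = 0.33, 0.083 and 0.066). With only the 6 libraries of 12 h in the fit, ADSS1 was called higher (adjusted p = 0.04, edgeR). Its copanlisib libraries lay above the DMSO libraries at 8 and 12 h. In the whole purine route (11 genes, among them 6 of the 10 members), 6, 9 and 10 genes were lower at the 3 times. The shares of all genes called lower were 20.7, 18.3 and 16.5%. None of the 11 was called higher in the fit of 18 libraries, and the median log2 fold changes were −0.16, −0.40 and −0.32. In the pyrimidine route (5 genes), the 4 that were lower at each time were the members CAD, DHODH, UMPS and CTPS1. The remaining gene, CTPS2, was higher at 4 h, against 17.7% of all genes called higher.

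The supply routes were lowered in part. Of 11 genes for PRPP synthesis and the pentose phosphate pathway, 5, 6 and 6 were lower and 1, 2 and 1 higher at 4, 8 and 12 h. Among all tested genes, 20.7, 18.3 and 16.5% were called lower and 17.7, 14.8 and 13.8% higher. RPIA, which makes ribose 5-phosphate, fell by 0.50, 0.55 and 0.38 on the log2 scale, and PRPS1, a PRPP synthetase, by 0.18, 0.45 and 0.35. PRPSAP1, a protein that binds those synthetases, rose by 0.25, 0.38 and 0.39. The 4 h calls of PRPS1 and PRPSAP1 were lost with fewer libraries: PRPS1 without DMSO 4 h replicate 3 (adjusted p = 0.065, edgeR) and for replicate 3 alone (0.1), and PRPSAP1 without DMSO 4 h replicate 2 (0.071), without copanlisib 4 h replicate 2 (0.051) and for replicate 3 alone (0.088). Of 12 tested genes of folate one-carbon metabolism, 6, 7 and 6 were lower and 1, 2 and 0 higher. The largest drops there were in the 2 folate carriers SLC19A1, at the plasma membrane, and SLC25A32, in mitochondria. SLC25A32 fell by 0.86, 0.79 and 0.61, and SLC19A1 by 0.92, 0.68 and 0.63. The 4 h copanlisib level of SLC19A1 was 15.5, 15.5 and 23.3 CPM in replicates 1, 2 and 3, and replicates 1 and 2 are those that stand apart. The mitochondrial folate enzymes MTHFD2 and MTHFD1L fell by 0.30, 0.56 and 0.52 and by 0.27, 0.53 and 0.61.

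Among genes that use or recycle nucleotides, counts were taken list by list. Beside them, 20.7, 18.3 and 16.5% of all tested genes were called lower and 17.7, 14.8 and 13.8% higher at 4, 8 and 12 h. Of 7 genes of deoxynucleotide synthesis, 1, 1 and 2 were lower and 2, 1 and 0 higher, with medians of 0.0038, 0.04 and −0.06. RRM2B, the p53-induced subunit of ribonucleotide reductase, rose by 0.55 at 4 h (adjusted p = 1.1e-08, edgeR) and stood at 0.07 and 0.11 later. Of 11 nucleotide kinases, 4, 5 and 6 were lower and 1, 2 and 1 higher. NME1, a nucleoside diphosphate kinase, fell by 0.33, 0.67 and 0.74. Reads that it shares with its near-identical neighbour NME2 may be split or lost, so the values of both genes are uncertain. Of 15 tested salvage and uptake genes, 6, 6 and 7 were lower and 2, 4 and 2 higher: the uptake carrier SLC29A2 fell by 0.78, 0.73 and 0.72 and the kinase UCK2 by 0.54, 0.37 and 0.43, whereas DCK, deoxycytidine kinase, rose by 0.74, 0.32 and 0.30. Of 11 tested breakdown genes, 2, 1 and 3 were lower and 5, 4 and 4 higher, with ADA, adenosine deaminase, rising by 0.13, 0.35 and 0.47 and NT5E, an ecto-nucleotidase, by 0.31, 0.45 and 0.31, while AMPD2, an AMP deaminase, fell by 0.64, 0.47 and 0.33. The 4 h call of ADA was lost without DMSO 4 h replicate 2 (adjusted p = 0.088) and without copanlisib 4 h replicate 2 (adjusted p = 0.084).

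**Figure D4:**
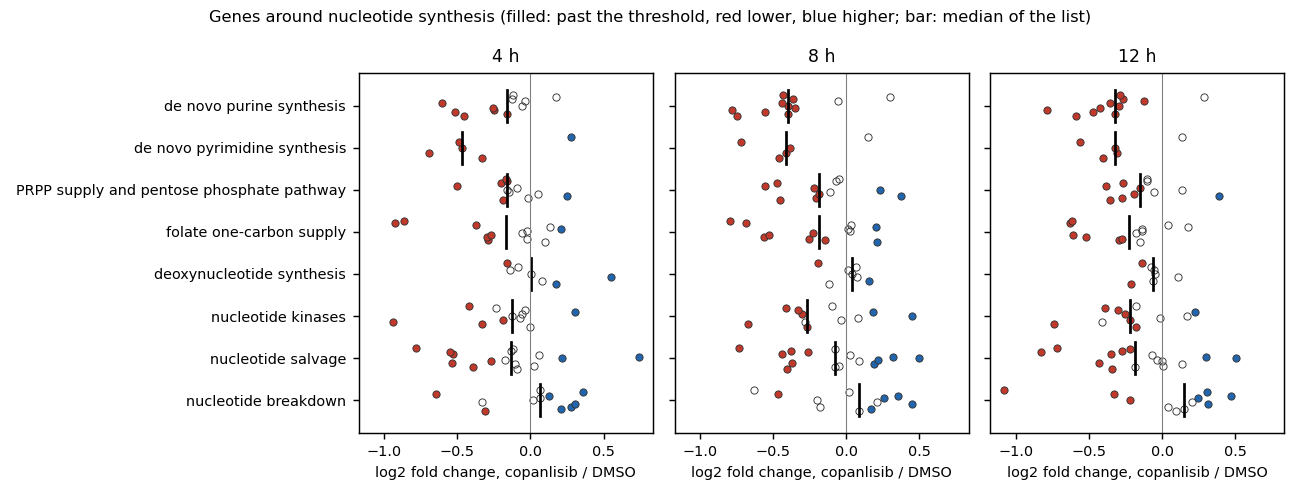
Log2 fold change of copanlisib against DMSO at 4, 8 and 12 h for every tested gene of each nucleotide pathway list, with a bar at the list's median and filled points for genes past the threshold (red lower, blue higher). The purine and pyrimidine synthesis lists lie mostly below 0 with medians between −0.47 and −0.16, and the breakdown list has medians of 0.07, 0.09 and 0.15.

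MYC and ATF4, transcription factors known to act on nucleotide and one-carbon genes, were measured in the same fit. MYC fell by 0.70, 0.69 and 0.60 on the log2 scale at 4, 8 and 12 h. Its level was 243, 231 and 230.4 CPM in DMSO and 142, 145 and 148 CPM in copanlisib at 4 h. ATF4 fell by 0.38 at 4 h and at 12 h, and was at −0.02 (adjusted p = 0.72, edgeR) at 8 h. MAX was at −0.02, −0.08 and −0.05 and did not pass the test at any time. Whether either factor bears on the 10 genes was not tested.

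The genes differed in how much their profiles resembled each other. Likeness was measured as the root mean square log2 difference between profiles over the 6 group means, each centred on its own mean. The closest pair was GART and ATIC at 0.050, followed by DHODH and PFAS at 0.087 and CTPS1 and PFAS at 0.10. PPAT and PAICS were 0.11 apart. The member nearest to IMPDH2 was ATIC at 0.17, the widest such distance among the 10. Outside the members, the genes nearest to the mean profile of the 10 were TIMM17A at 0.012, SRSF1 at 0.024, ALDH18A1 at 0.033, ADCY3 at 0.035 and EXOSC3 at 0.040. A flat profile was 0.212 away, and the median gene compared 0.245.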

How the data were processed

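The authors deposited, for each of 18 libraries, read counts per gene made with STAR 2.5.2b after CASAVA 1.7 base calling, per the submitters' processing notes; the sources used here name no annotation release. The deposited counts on the reverse strand were used, since they held 94.3 to 95.3% of the reads counted on either strand. The 4 summary lines of each file (24.8 to 32.5% of reads) were left out. Multi-mapping reads are among the summary lines, so near-identical copies are undercounted. Of the identifiers, 56321 matched a table of symbols, 432 more were named by GENCODE 29 and 3730 stayed unnamed.

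Genes were filtered with edgeR's filterByExpr (16122 kept, holding at least 99.873% of reads), scaled by TMM and fitted with 1 mean per group over 18 libraries (edgeR 4.0.16, quasi-likelihood, R 4.3.3), with p-values adjusted over all genes kept; genes under 0.05 were called. The common biological coefficient of variation was 0.05. CPM use TMM-scaled totals, except those of the cell type and retinal markers, which use plain library totals. The procedure was tested on simulated data. The members and lists were chosen with earlier results of these data known. Genes named outside the members are, by rule, the other core enzymes, up to 4 genes of each list with the largest mean changes among those past the threshold at any time, the factors MYC, MAX and ATF4, and the 5 nearest profiles. RPE, RRM1, RRM2, DCTD, AK6, AK1, UPP1 and GDA were also picked by this rule but are not described. Alternatives included DESeq2 1.42.0, limma 3.58.1 with voom, counts without strand, no filter, a replicate block and leaving out each library.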

Additional observations from a re-analysis of the deposited data

Results flagged for a closer look

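By the interaction test of the edgeR fit, the effect of copanlisib differed between times for some of the 10 genes. From 4 to 8 h, 5 genes moved down, against 9.86% of all genes, and none moved up, against 9.29%. The log2 fold change moved by −0.53 for PAICS, −0.34 for ATIC, −0.29 for PPAT, −0.24 for GART and −0.23 for CTPS1. From 4 to 12 h it moved by −0.53 for PAICS and −0.23 for ATIC, against 7.69% of all genes moving down. For DHODH it moved by 0.38, against 8.98% of all genes moving up. The PPAT, CTPS1 and DHODH calls were each lost on leaving out single libraries, as given above. Both intervals start from the same 4 h libraries, which include the 2 copanlisib libraries that stand apart. With replicate 3 as the only copanlisib 4 h library, a fit that takes the spread of that arm from the other groups, the values from 4 to 8 h were −0.42 for PAICS, −0.26 for ATIC, −0.13 for PPAT, −0.17 for GART and −0.15 for CTPS1. From 4 to 12 h they were −0.42 for PAICS, −0.15 for ATIC and 0.30 for DHODH. CAD was at −0.35 and −0.29.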

How the results depend on the processing

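Of 420 values of the 10 drug effects under alternatives, 414 kept their direction and their side of the threshold, 5 were no longer called, 1 was newly called and none changed sign. With no filter on low counts, 3 members in place of 5 changed downwards in effect from 4 to 8 h, 0 in place of 1 upwards from 4 to 12 h, and 3 in place of 6 were lower in copanlisib at 8 h against 4 h. With an adjusted p under 0.01 the first 2 counts were also 3 and 0, and with counts without strand the second was 0. With replicate 3 as the only copanlisib 4 h library, assumed to vary like the other groups, they were 3 and 0, and in copanlisib from 4 to 8 h, 3 members were lower and 0 in place of 3 higher; CAD there went from 0.22 to −0.00031. Genes called at 4 h went from 6195 to 3778 in that fit and to 3733 with only the 6 libraries of that time. Leaving out each library in turn gave 3 to 5 for the first count, 0 to 1 for members with a rise in effect from 4 to 8 h, 0 to 1 for those from 4 to 12 h, 1 to 2 for members lower in DMSO from 4 to 8 h and 0 to 3 for members higher in copanlisib over that interval. The cause of these differences was not tested. Samples with the same replicate number did not deviate together (12 of 45 pairs had a correlation over 0.1); with the replicate block 8, 9 and 10 members were lower at 4, 8 and 12 h and 5 changed in effect from 4 to 8 h. DHODH had the fewest reads of the 10 genes, 234 to 406 per library. IMPDH2 at 12 h was also not called with no filter (adjusted p = 0.066, edgeR), nor GART at 4 h with only the 6 libraries of that time (adjusted p = 0.055).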
